A study of Homo sapiens with 35 samples.

Results

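The ChIP-seq of p52 compared here set U-87 MG cells with CRISPR knockdown (KD) of ETS1 by guide 1 against CRISPR control cells, all treated with TWEAK. All peaks of the 2 control and the 2 guide 1 libraries were taken and peaks sharing at least 1 bp were merged, which gave 12558 sites from 4 of the 35 samples of the series, 20 of which came with peak lists. A control site was a site with a peak in both control libraries. There were 2941 control sites, and each was called lost (no peak in either guide 1 library), partly kept (a peak in 1 guide 1 library) or kept (a peak in both). A site was called gained where both guide 1 libraries and neither control library had a peak.

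U-87 MG is a cell line derived from a human glioblastoma. Control and KD cells were starved and then given 10 ng/ml TWEAK for 48 h, so TWEAK was shared by every library compared. The KD was made with a lentiviral CRISPR vector, and whether the KD cells were a pool or 1 clone is not given in the sources used here. Untreated control cells (p52 and ETS1 ChIP-seq), guide 2 KD cells with TWEAK (p52) and RNA Pol II ChIP-seq and RNA-seq of control and ETS1 KD cells were used alongside; the labels of the RNA-seq and RNA Pol II libraries do not say which guide was used. The methods describe the RNA-seq replicates as biological. For the ChIP-seq libraries no source used here says that replicates came from separate cultures, so the spread between them may be technical.

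TWEAK is a cytokine of the tumour necrosis factor family that binds the receptor Fn14, encoded by TNFRSF12A. Its signal stabilises the kinase NIK (MAP3K14), which leads to processing of the NFKB2 product p100 into p52. p52 forms dimers with RELB and other REL family proteins and, with the cofactor BCL3, binds κB decamers in promoters and enhancers of cytokine, survival and NF-κB feedback genes. ETS1 is a transcription factor of the ETS family that recognises a GGAA core and often binds beside other factors, RUNX and AP-1 proteins among them.

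The lists of the 4 libraries differed in length. The control libraries held 3579 and 11761 peaks and the guide 1 libraries 1387 and 3897, so replicate 2 was the longer in both groups. Guide 2 libraries held 4252 and 3938 peaks, and untreated control libraries 714 and 452. The fold enrichment of a peak, its signal at the summit over the background, had a median of 7.23 and 7.004 in control, 9.24 and 9.10 in guide 1 and 2.96 and 2.94 in untreated cells. In RNA-seq, ETS1 was lower in KD cells, at 28.2, 33.0 and 37.8 CPM (counts scaled to the library's total after TMM normalization) against 71.9, 73.1 and 87.6 in control cells with TWEAK (log2 fold change -1.23, SE 0.15, edgeR adjusted p = 0.0011), which checks the KD in those libraries only. The mesenchymal marker VIM stood at 9088 to 17685 CPM in the 12 RNA-seq libraries, the glial marker GFAP at 0.365 CPM or less and the blood cell marker PTPRC at 0.0922 CPM or less.

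Sites of different classes could share a decamer word. The following 30-base windows are from the hg38 reference, 5′ to 3′ on the strand of the decamer, and the capitals mark a match to the NF-κB decamer consensus near the summit. They are shown in sets that share a decamer, a kept site first and a lost site after it, followed by partly kept and lost sites beside TNFAIP3, MMP9, MMP14 and CCL2.
NFKB2, kept, chr10:102394490-102394519, plus strand: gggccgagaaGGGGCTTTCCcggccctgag
GPC6, lost, chr13:93145396-93145425, plus strand: gttttataaaGGGGCTTTCCcttgcaaatg
STX8, kept, chr17:9389251-9389280, plus strand: ctaccaaggtGGGAATTTCCctaaccacag
PDE1C, lost, chr7:32336707-32336736, plus strand: ttttagaaaaGGGAATTTCCcttgctacat
EGR1, kept, chr5:138461477-138461506, minus strand: tcttgggaaaGGGAAATTCCctttccctga
ATP13A3, lost, chr3:194496208-194496237, minus strand: tcgaaacacaGGGAAATTCCccatgacagc
TNFAIP3, partly kept, chr6:137867182-137867211, minus strand: ggatttccacGGGACTTTCCaaagtcacgt
MMP9, partly kept, chr20:46008294-46008323, minus strand: aggcaaggctGGGGAATTCCactggggcaa
MMP14, lost, chr14:22839009-22839038, plus strand: cgactccagaGGGGATTTCCcccagagctc
CCL2, lost, chr17:34235766-34235795, minus strand: gagaatccctGGGACTTCCCaaatgactgc

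Of the 2941 control p52 sites, 591 were lost with guide 1 (20.1%, exact 95% binomial interval 18.7 to 21.6, counting error only), 1180 were partly kept (40.1%) and 1170 were kept (39.8%, 38.0 to 41.6). Only 20 sites were gained. The partly kept class came from the shorter guide 1 list: 1172 of its sites had a peak in guide 1 replicate 2 only and 8 in replicate 1 only. Control sites without a peak numbered 1763 (59.9%) in guide 1 replicate 1 and 599 (20.4%) in guide 1 replicate 2. In the guide 2 libraries, against the same control libraries, 617 (20.98%) and 607 (20.6%) had no peak, so guide 1 replicate 1 stood apart from the other 3 KD libraries. With 2 libraries against 2, an exact permutation test cannot give a p under 0.333, and no test was made of these shares.

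Loss followed the strength of the control site. Ranked by q-value in control replicate 1, the strongest decile of control sites lost 1.02% and kept 97.3%, while the weakest decile lost 57.5% and kept 4.08%. Between them the share lost was 11.9% in decile 5 and 39.5% in decile 8. The median fold enrichment in the control libraries fell over the same range from 25.0 and 49.6 to 4.60 and 8.24. The guide 2 libraries lacked a peak at 1.69% and 0.339% of the strongest decile and at 60.2% and 61.9% of the weakest.

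**Figure D1:**
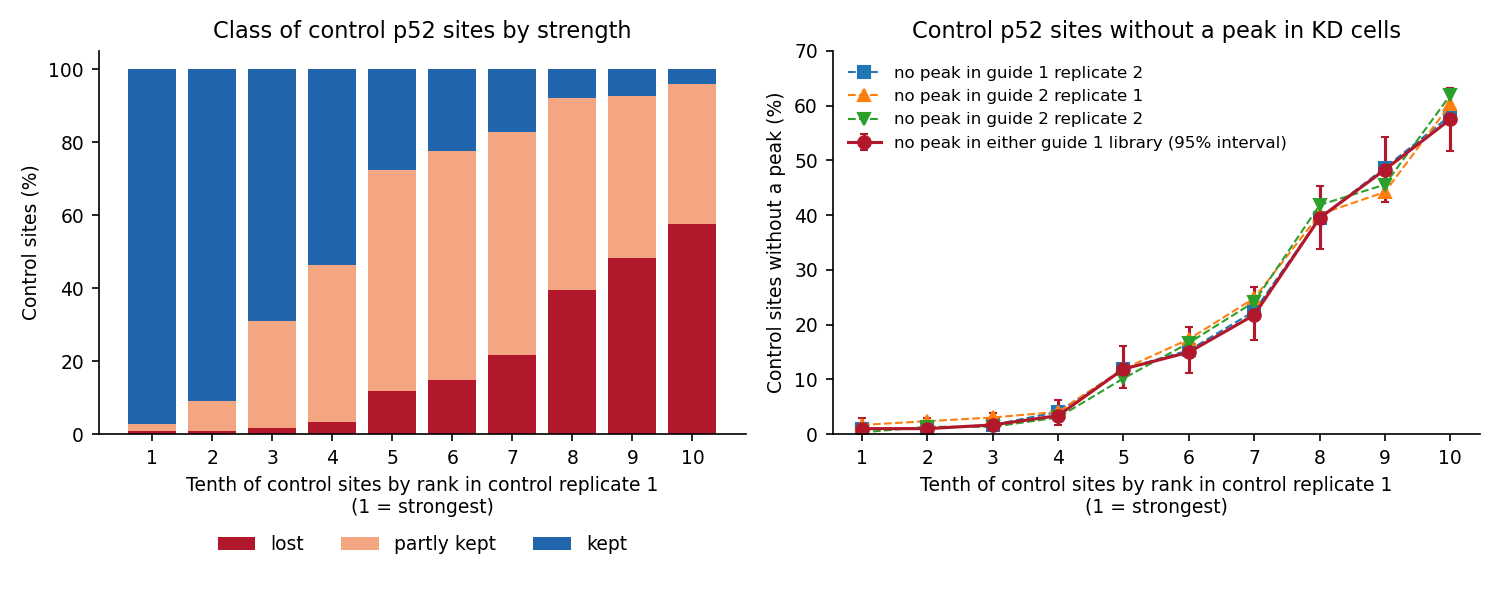
Left, the share (%) of control p52 sites that were lost, partly kept or kept, by decile of control sites ranked in control replicate 1 (1 is the strongest). Right, the share (%) with no peak in either guide 1 library (circles, bars are exact 95% binomial intervals) and in guide 1 replicate 2 and each guide 2 library alone (dashed lines). The share lost runs from 1.02% in the strongest decile to 57.5% in the weakest, and all 4 lines lie close together.

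With each list held to its strongest 1387 peaks by q-value, the length of the shortest list, fewer sites changed class. Of 1089 control sites, 103 were lost (9.46%, 7.79 to 11.4) and 847 kept (77.8%), and 81 of the 1058 guide 1 sites were gained (7.66%, 6.13 to 9.43). Of the 103 sites lost at equal length, 93 had a peak lower down in the full list of guide 1 replicate 2 and 10 had none. Guide 1 replicate 1 was the shortest list and entered whole, so by construction only replicate 2 could hold such a peak. Both control lists were longer than the cut, so the counts for gained sites are not like for like. Of the 81 gained, 59 had a peak in both full control lists and 4 in neither. The share lost was 9.50% with 1000 peaks from each list and 8.63% with 500. Pair by pair at 1387 peaks, the control libraries shared 78.5% of their peaks, the guide 1 libraries 76.5%, and a control with a guide 1 library 70.6 to 79.8%. Only control replicate 2 with guide 1 replicate 2 (79.8%) lay above the pairs within groups, and the other pairs between groups (70.6, 70.7 and 75.1%) lay below both. With 1000 peaks the pairs between groups lay at 73.55 to 81.1%, against 80.0 and 82.4% within groups. With 500 peaks they lay at 74.8 to 81.0%, against 78.8 and 82.2%.

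**Figure D2:**
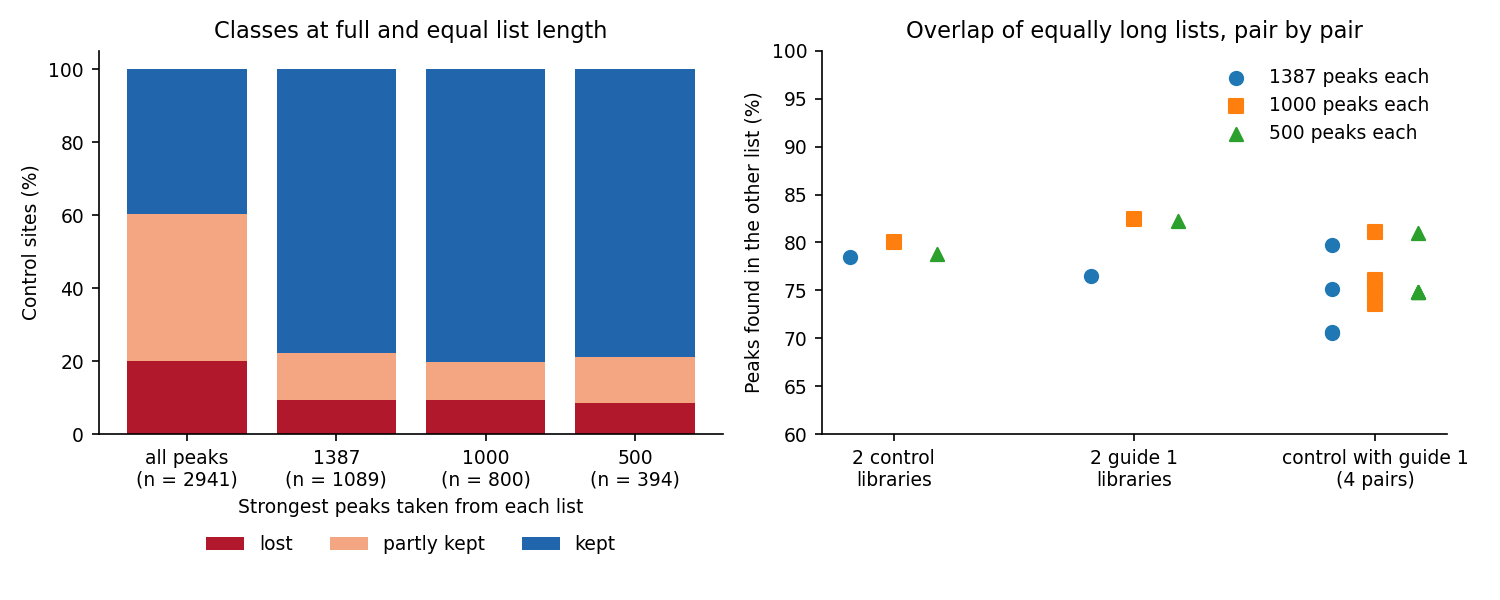
Left, the share (%) of control p52 sites lost, partly kept and kept with all peaks and with the strongest 1387, 1000 and 500 peaks of each list; n is the number of control sites. Right, the share (%) of peaks found in the other list for each pair of lists of equal length (vertical axis from 60%). With 1387 peaks the control with guide 1 pairs lie at 70.6 to 79.8%, and only the highest of them lies above the 2 pairs within groups.

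The strongest lost sites lay within or near genes outside the gene lists used here. The intronic site 37393 bp upstream of the annotated start of PDE1C, a cyclic nucleotide phosphodiesterase, had a fold enrichment of 12.2 and 25.0 in control and no peak in guide 1, and guide 2 replicate 2 had one at 7.33. The site 81391 bp upstream of GPC6, a glypican of the cell surface, stood at 11.9 and 23.5 in control and had no peak in any KD library. The site at ATP13A3, a P5-type transport ATPase, stood at 14.7 and 23.0 in control, was absent in guide 1 and stood at 12.5 and 10.3 in guide 2. The lost site 1244 bp upstream of SERPIND1, which encodes heparin cofactor II, stood at 10.2 and 23.6 in control and at 12.2 and 13.9 in guide 2. Of the 10 lost sites of best rank, 5 had a peak in both guide 2 libraries (ATP13A3, KRR1, ZDHHC11B, ZNF462 and SERPIND1). The top-ranked lost site, 503048 bp from PROS1, was of another kind, with a fold enrichment of 1.48 and 1.23 in control and peaks in both untreated libraries at 1.25 and 1.34.

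The partly kept sites of best rank were strong in control cells. The site 14854 bp upstream of PFKFB3, a regulator of glycolysis, stood at 24.5 and 52.05 in control, had no peak in guide 1 replicate 1, stood at 14.6 in guide 1 replicate 2 and at 21.7 and 25.3 in guide 2. The RBBP4 promoter, of a histone-binding chromatin protein, stood at 14.5 and 26.035 in control and at 27.0 in guide 1 replicate 2, so its missing peak in replicate 1 had no counterpart in replicate 2. Sites at ANKRD10 and HYDIN were lower in guide 1 replicate 2, at 8.53 and 8.84, than in control replicate 2, at 51.9 and 35.8.

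The kept sites of best rank included the sites of highest fold enrichment. The site 3986 bp upstream of EGR1, an immediate early transcription factor, stood at 86.9 and 169 in control, 139 and 299 in guide 1 and 263 in both guide 2 libraries. The NFKB2 site had its summit 3 bp from an annotated start and 1205 bp upstream of the main annotated start. It stood at 46.0 and 93.9 in control, 51.1 and 141 in guide 1 and 125 and 115 in guide 2, with no peak in untreated cells. The promoter shared by B2M and PATL2 stood at 33.7 and 81.3 in control and 71.2 and 135 in guide 1. Sites at STX8 (72.9 and 154, then 53.2 and 110) and CEMIP (64.7 and 121, then 36.9 and 69.7) kept their peaks, with overlapping groups. Each replicate was lower there than the same-numbered control, but over all kept sites the median log2 difference, uncentred, was also below 0, at -0.32. The PGK1 promoter, of a glycolytic kinase, held no decamer, was bound by ETS1 and had peaks in untreated cells at 24.0 and 8.37. It stood at 31.3 and 65.8 in control and 20.2 and 89.1 in guide 1.

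The 20 gained sites were weak and lay far from genes. Their median fold enrichment was 4.08 and 3.40 in guide 1, 18 lay over 200 kb from any protein-coding start, 19 were intergenic and 1 intronic. No gained site held a decamer, where 0 of 20 allows a share of up to 16.8% (exact 95% limit). Untreated control cells had a p52 peak at 5 of the 20 in replicate 1 and at 4 in replicate 2. An ETS1 peak in either control TWEAK library lay at 5, so not all were new places of signal.

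Genes of the NF-κB system itself kept most of their p52 sites. Of 22 control sites within 50 kb of a start of 11 of the 13 subunit and inhibitor genes, 14 were kept, 7 partly kept and 1 lost, against 39.8% kept, 40.1% partly kept and 20.1% lost among all control sites. These lists were chosen with results of these data known, so the counts are a description. The RELB promoter (p52's main partner) stood at 26.3 and 50.5 in control and 18.8 and 43.7 in guide 1. The REL start (the c-REL subunit) stood at 32.5 and 72.9, then 22.5 and 50.2. The start of NFKBIB, an inhibitor that holds dimers in the cytoplasm, stood at 35.5 and 68.2, then 32.3 and 70.8, which left the groups overlapping at all 3. TNFAIP3, which encodes the ubiquitin-editing inhibitor A20, had a weaker promoter site at 5.32 and 11.3 in control, with no peak in guide 1 replicate 1 and 5.70 in replicate 2. CYLD, a deubiquitinase that restrains NF-κB, had 9.74 and 29.9 in control and 10.0 in guide 1 replicate 2 only. The lost site of this list lay 46699 bp from the RELB start, inside MARK4 and GEMIN7, at 3.70 and 11.97 in control, and had no peak in guide 2.

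The TWEAK receptor pathway had 6 sites, of which 2 were kept, 3 partly kept and 1 lost (39.8% kept and 20.1% lost among all control sites). TRAF1, an adaptor of tumour necrosis factor receptors, had a kept site 654 bp from a start, at 27.4 and 60.9 in control and 9.90 and 24.2 in guide 1, so both guide 1 values lay below both control values. A weaker TRAF1 site 532 bp from another start, at 8.21 and 14.8, was lost, but had a peak in both guide 2 libraries. Among 13 sites at chemokine and cytokine genes, 6 were kept, 3 partly kept and 4 lost, beside the same 39.8% and 20.1%. Kept sites included the promoters of the neutrophil chemokines CXCL2 (20.4 and 40.1, then 19.0 and 29.0) and CXCL3 (26.3 and 50.7, then 20.5 and 43.5) and of the macrophage factor CSF1 (19.8 and 36.2, then 26.7 and 44.2). The lost sites were distal ones near CCL2, CCL20, IL1A and CSF1, at 3.54 to 8.71 in control replicate 1 and 9.32 to 17.7 in control replicate 2. The one near IL1A lay inside CKAP2L and NT5DC4, and the one near CCL20 was nearest to DAW1. Those near CCL2, CCL20 and CSF1 had a peak in 1 guide 2 library, and the one near IL1A in neither. No promoter site of this list was lost.

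Sites at invasion genes were weak in control cells, and none of 6 was kept and 3 were lost, where all control sites had 39.8% kept and 20.1% lost. MMP14, a membrane-bound matrix metalloproteinase, had a site 1702 bp inside the gene at 6.77 and 14.8 in control that was lost. MMP2, a secreted gelatinase, had one at 5.64 and 9.52 that was lost, and the site 6674 bp from the start of VIM, at 5.41 and 5.16, was lost too. The lost MMP14 and MMP2 sites had a peak in both guide 2 libraries, and the VIM site in guide 2 replicate 1 only. MMP9, the other gelatinase, had a promoter site at 7.23 and 20.6 in control and 15.3 in guide 1 replicate 2. The 10 AP-1 sites were split into 3 kept, 3 partly kept and 4 lost, beside those same shares. FOSL1 (the AP-1 subunit FRA1) kept a site 12397 bp upstream at 32.4 and 65.8, then 27.3 and 52.7. Another FOSL1 site, 11758 bp from its start at the FIBP promoter (6.76 and 18.4 in control), was lost. Sites near FOS (4.79 and 5.0), JUN (3.46 and 5.41) and FOSB (inside ERCC1, 9.20 and 12.5) were lost too. Of these 4 lost sites only the one near FOSB had a peak in guide 2, in both libraries. In the ETS family, 6 of 9 sites were kept and 1 lost, against 39.8% and 20.1% of all control sites. The kept ones included sites 42937 and 7435 bp from a start of ETS1 at 20.3 and 38.9, then 19.7 and 39.9, and at 16.0 and 38.7, then 13.6 and 27.8. The remaining ETS1 site, 15269 bp from a start, stood at 13.5 and 24.3 in control and at 4.65 in guide 1 replicate 2, with no peak in replicate 1. No p52, ETS1 or RNA Pol II peak lay within 2000 bp of the main annotated ETS1 start, although ETS1 RNA was present in these cells. Other annotated ETS1 starts were not searched in this way. The paper reports p52 at the ETS1 promoter after TWEAK, so this search does not bear on that promoter as a whole.

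**Figure D3:**
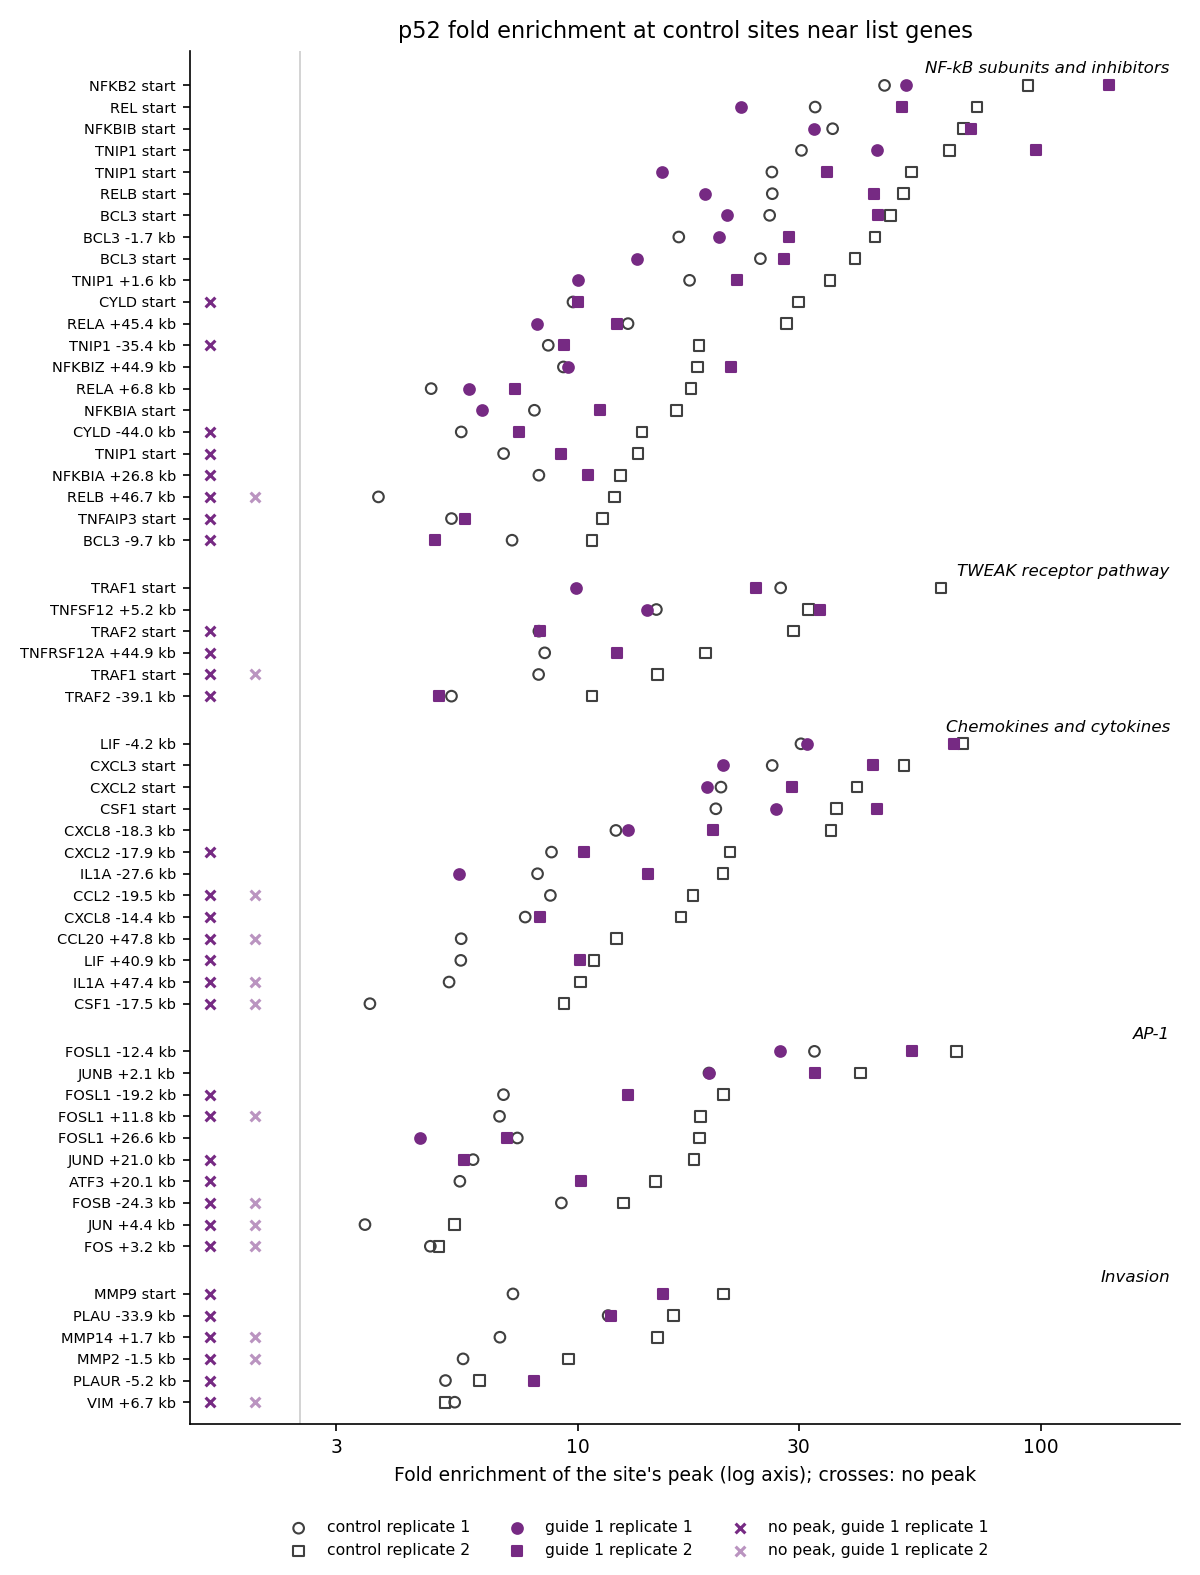
Fold enrichment (log axis) of the p52 peak at each control site within 50 kb of a start of a listed gene, in the 2 control (open) and 2 guide 1 (filled) libraries; crosses at the left stand for no peak in a guide 1 library, and kb gives the distance to the nearest start. The site at an annotated NFKB2 start is at the top with 4 peaks of 46.0 to 141, and sites under about 10 in control replicate 1 carry most of the crosses.

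Stress genes of the endoplasmic reticulum had 4 control sites. Near the sensor ERN1, which encodes IRE1α, a site 34397 bp away was lost (5.80 and 6.53 in control). It lay inside ICAM2, 181 bp from the ICAM2 start. A site 25571 bp upstream of ERN1, inside TEX2, was kept (14.4 and 27.2, then 7.64 and 15.4). At the ERN1 start on chromosome 17 (chr17:64130144), control replicate 2 alone had a p52 peak, at a fold enrichment of 9.97 and 630 bp upstream, with no peak in control replicate 1 or in any guide 1, guide 2 or untreated library, so the start is no control site. RNA Pol II peaks at that start stood at 85.8 and 53.1 in control cells with TWEAK, 40.1 and 37.9 in ETS1 KD cells and 20.5 and 36.1 in untreated cells, with the KD values below both TWEAK control values. No ETS1 peak lay within 2000 bp of the start. DDIT3, which encodes the stress factor CHOP, had a partly kept site at 197 bp (7.26 and 21.02, then 12.3 in guide 1 replicate 2). A site 1576 bp upstream of DDIT3 was lost (6.29 and 11.3), and it lay inside MBD6, 250 bp from the MBD6 start. The lost site inside MBD6 had a peak in both guide 2 libraries, and the lost site inside ICAM2 in neither. Survival genes had 3 sites, among them MCL1 (8.41 and 15.0, then 7.62 in guide 1 replicate 2), and antigen presentation genes 3, with B2M the kept one.

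Over control sites of all strengths, the NF-κB decamer and the AP-1 sequence were more frequent at kept than at lost sites. A match to the NF-κB decamer consensus lay within 100 bp of the summit, on either strand, at 62.3% of lost, 70.6% of partly kept and 78.1% of kept sites, against 1.99% of windows 2000 bp to either side and 3.95% of windows at annotated starts. Among sites that held a match within 1 kb, the median distance from the summit was 9 bp in lost, 6 bp in partly kept and 3 bp in kept sites. The AP-1 sequence TGANTCA lay at 20.3% of lost, 22.6% of partly kept and 26.9% of kept sites (flanks 5.96%). The ETS core AGGAAG lay at 25.2%, 25.7% and 22.5% (flanks 20.4%), and the RUNX sequence TGTGGT at 11.5%, 10.8% and 12.5% (flanks 12.7%). The longer ETS sequence CCGGAAG was rare, at 1.18%, 2.63% and 1.97% (flanks 0.664%). The exact 95% intervals of lost and kept sites did not overlap for the decamer and for TGANTCA, and overlapped for both ETS sequences and the RUNX sequence. In the weakest tertile of control sites by rank, which holds most of the losses, the decamer shares were closer, at 62.4% of lost, 65.3% of partly kept and 70.6% of kept sites, with overlapping intervals.

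The number and the letters of decamers went with the class as well. Sites with no match lost 27.0% and kept 31.0% of 826, sites with 1 match lost 19.3% and kept 38.6% of 843, and sites with 2 or more lost 16.1% and kept 46.3% of 1272. Their control fold enrichment rose in the same order, from medians of 6.78 and 13.6 to 9.33 and 19.8, so number and strength cannot be told apart here. Of the 54 different words, GGGAAATCCC was the most frequent, with 239 sites of which 15.5% were lost and 48.1% kept. GGGACTTTCC, the classical immunoglobulin enhancer word, had 139 sites with 14.4% lost and 59.0% kept, and GGGAATTCCC had 210 with 11.4% lost and 55.2% kept. GGGGATTTCC, the word at the lost MMP14 site, had 72 sites with 36.1% lost and 23.6% kept, and GGGACTCTCC had 21 with 38.1% lost and 14.3% kept. Sites with GGGGATTTCC were also weaker in control cells, at medians of 7.59 and 13.4. A site with several matches was counted once, under the word nearest its summit.

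**Figure D4:**
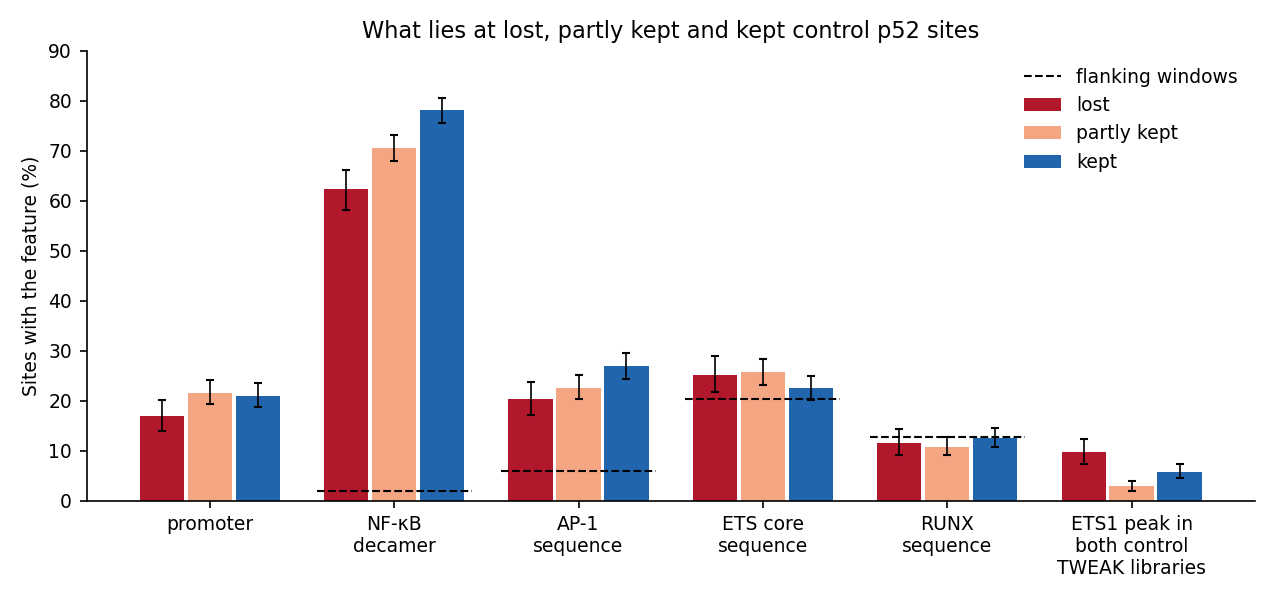
Share (%) of lost, partly kept and kept control p52 sites with each feature; bars carry exact 95% binomial intervals, and dashed lines give the share among windows 2000 bp to either side. The NF-κB decamer is at 62.3%, 70.6% and 78.1% of lost, partly kept and kept sites, and the ETS core AGGAAG at 25.2%, 25.7% and 22.5% against 20.4% in the flanks.

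Overlap with ETS1 itself was low in every class. A peak in both ETS1 libraries of control cells with TWEAK lay at 9.64% of lost, 2.88% of partly kept and 5.81% of kept p52 sites. Part of this came from 103 control sites with a fold enrichment under 3 in either control library, of which 77.7% had the ETS1 peak, 85.4% a p52 peak in untreated cells, 81.6% lay over 200 kb from a coding start and 3.88% held a decamer. Without them, 29 of 552 lost (5.25%, 3.55 to 7.46), 22 of 1161 partly kept (1.89%) and 28 of 1125 kept sites (2.49%, 1.66 to 3.58) had the ETS1 peak. Read the other way, 29 of the 79 ETS1-bound control sites were lost (36.7%) and 28 kept (35.4%), against 19.0% lost and 39.8% kept of the other 2759. The 28 kept ETS1-bound sites included several over 200 kb from a coding start. One was the wide merged site chr21:8209452-8222145, at 55.6 and 16.5 in control and 7.78 and 14.9 in guide 1. Others lay on contigs outside the assembled chromosomes, such as Un_GL000220v1 (103997-122982, 54.2 and 17.5 in control) and 22_KI270733v1_random. At these wide sites control replicate 1 stood above replicate 2, unlike the medians given below. The shares lost and kept without such sites were not worked out. Lost ones included chr3:10199-10683, so the shares do not describe promoters alone. The ETS1-bound sites were weaker p52 sites, with a median rank of 2348 in control replicate 1 against 1596 and a median fold enrichment of 5.45 and 7.36 against 8.32 and 17.7, and the part of strength in the difference was not tested.

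Lost sites bound by ETS1 at promoters included PHYH, a peroxisomal enzyme of phytanic acid breakdown, at 5.63 and 19.0 in control, UHRF1, which maintains DNA methylation, at 4.83 and 13.0, and NDUFA7, of respiratory complex I, at 4.68 and 9.55. PHYH had a peak in both guide 2 libraries and UHRF1 and NDUFA7 in neither. Partly kept promoters bound by ETS1 included the translation factor EEF1A1 (17.1 and 24.1, then 14.5 in guide 1 replicate 2) and the chromatin protein PTMA (8.39 and 23.1, then 15.0). Kept ones included RRAD, a small GTPase (14.4 and 34.4, then 9.75 and 24.8), and CYREN, of DNA end joining (12.02 and 38.9, then 7.77 and 16.1). Promoters in general made up 16.9% of lost, 21.6% of partly kept and 21.03% of kept sites. RNA Pol II peaks in both control libraries with TWEAK lay at 19.3%, 20.5% and 23.2% of the classes, and in both ETS1 KD libraries at 15.9%, 16.4% and 17.4%.

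At the 1170 kept sites, which had a value in all 4 libraries, fold enrichment was compared as log2 values, each library centred on its median. limma called 137 sites (11.7% of those tested, Benjamini-Hochberg adjusted p under 0.05), of which 88 (7.52%) were higher and 49 (4.19%) lower in guide 1, and 387 had an unadjusted p under 0.05. The median difference before centring was -0.32 on the log2 scale, and the changes called are relative to that shift. Without centring no site was called by limma (21 at an unadjusted p under 0.05). Uncentred, the 2 libraries within each group also differed in level, with medians of 12.8 and 27.6 in control and 10.3 and 20.5 in guide 1. Why the calls fell was not tested. Calls fell to between 0 and 25 when any 1 library was left out, with 266 to 307 sites at an unadjusted p under 0.05. Sites higher in guide 1 had median fold enrichments of 11.9 and 26.5 in control and 20.6 and 38.3 in guide 1, and lower sites 17.3 and 40.4, then 7.04 and 13.5. All kept sites were chosen by having a peak everywhere, so a fall to no peak is not among them.

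The following sequences are from sites with large called differences that held a decamer, lower and higher, and capitals mark the decamer. The site at EGFLAM, also among the 5 largest called rises (log2 difference 1.504), held none.
HMGB2, lower, chr4:173335160-173335189, plus strand: ttcccgccgaGGGAGTTTCCctcagaaggc
PARP8, lower, chr5:50667819-50667848, minus strand: tggcaacagcGGGAATTTCCcgatagggga
TBC1D10A, lower, chr22:30325240-30325269, minus strand: ctcccctaagGGGAGTTCCCtctcacccac
EFNA5, higher, chr5:106399538-106399567, plus strand: gagtatttaaGGGAATTCCCctaccctaca
CLNK, higher, chr4:10584378-10584407, plus strand: gaagttctgtGGGACTTTCCctgaaataat

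The HMGB2 promoter, of a high mobility group chromatin protein, showed the largest called fall, from 31.8 and 69.4 in control to 7.62 and 16.1 in guide 1 (log2 difference -1.71, SE 0.16, limma adjusted p = 0.0311). Guide 2 stood at 22.1 and 22.8 there. The PARP8 promoter, of an ADP-ribosyltransferase, went from 35.1 and 75.8 to 8.64 and 19.0 (-1.64, SE 0.16), and guide 2 stood at 22.2 and 21.3. An intronic site of TBC1D10A, a Rab GTPase activator, went from 17.3 and 43.5 to 5.57 and 10.6 (-1.47, SE 0.17). In each, both guide 1 values lay below both control values. Chosen after its values were seen, the promoter of BCL6 (a transcriptional repressor, 12.4 and 33.2, then 5.29 and 9.66) was also called lower, by -1.13.

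The largest called rise was at a site 1271076 bp from EFNA5, an ephrin ligand, from 30.3 and 58.4 in control to 73.0 and 149 in guide 1 (log2 difference 1.68, SE 0.17, limma adjusted p = 0.0311), with guide 2 at 61.2 and 63.0. An intronic site at CLNK, an adaptor of immunoreceptor signalling, rose from 9.59 and 18.2 to 20.3 and 40.6 (1.49, SE 0.17). The EGR1 site above rose by 1.12 (SE 0.17). Chosen after their values were seen, intronic sites of the matrix protein gene TNC (26.3 and 53.3, then 55.1 and 93.5) and of the glutamate transporter gene SLC1A2 (22.7 and 41.9, then 46.5 and 85.4) were called higher, by 1.31 and 1.40. The decamer lay at 90.9% of higher, 81.6% of lower and 76.9% of uncalled kept sites. TGANTCA lay at 38.6%, 34.7% and 25.6%, AGGAAG at 21.6%, 18.4% and 22.7%, and an ETS1 peak in both control libraries at 0 of 88 (which allows up to 4.11% by the exact 95% limit), 0 of 49 (up to 7.25%) and 68 of 1033 (6.58%). Of those 68 sites, 40 had a fold enrichment under 3 in either control library, and without such sites 28 of 1125 kept sites (2.49%) had the ETS1 peak.

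**Figure D5:**
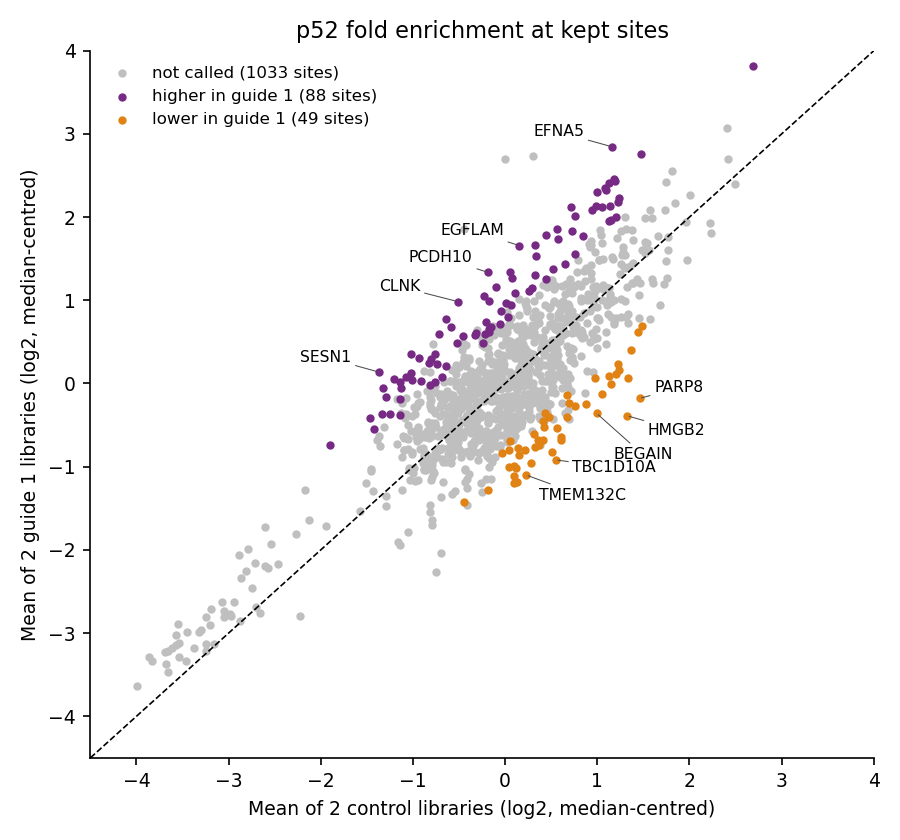
Each point is a kept p52 site; axes give the mean log2 fold enrichment, centred on each library's median, over the 2 control (horizontal) and the 2 guide 1 libraries (vertical), and the dashed line marks equal values. The 88 sites called higher lie above the line, EFNA5 among them, and the 49 called lower lie below it, with HMGB2 and PARP8 farthest.

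RNA levels of genes near the sites were compared in ETS1 KD and control cells, both with TWEAK, by edgeR over 16879 genes. Of all genes tested 234 were called (1.39%), 43 up (0.255%) and 191 down (1.13%). Of 297 tested genes nearest to a lost site within 50 kb, 3 rose (1.01%) and 1 fell (0.337%), of 651 nearest to a partly kept site 2 rose and 11 fell, and of 599 nearest to a kept site 6 rose and 10 fell (1.67%). With a lost p52 site at the gene's own promoter, 1 of 55 genes rose. The median log2 fold change was near 0 in each set, at 0.0050 for lost and -0.01 for kept sites. TWEAK itself raised 3.37% of the genes near lost sites, 6.14% near partly kept and 6.01% near kept sites, against 1.55% of all genes (520 called, 3.08%). It lowered 3.03%, 1.38% and 2.504% of them, against 1.53% of all genes. The TWEAK and KD comparisons share the control libraries with TWEAK.

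Genes near lost sites that changed were few. IL36B, a cytokine of the interleukin 1 family, fell from 356, 334 and 322 CPM in control cells with TWEAK to 100.2, 112 and 89.3 in ETS1 KD cells (log2 fold change -1.75, SE 0.16, edgeR adjusted p = 0.00016). SERPIND1, whose site 1244 bp upstream was lost, rose from 8.90, 6.82 and 10.2 to 20.8, 26.6 and 26.7 CPM (1.52, adjusted p = 0.0063), and it also has a kept site. C3, the central complement component, rose from 32.6, 54.3 and 80.1 to 148, 109 and 178 CPM (1.38, adjusted p = 0.0282), and COL4A2, a basement membrane collagen, by 0.95 (adjusted p = 0.0301). With 1 library left out, COL4A2 was not called in any of the 6 fits (edgeR adjusted p 0.0941 to 0.132). C3 was not called in 4 of the 6 (0.0116 to 0.15; only without control replicate 3 or KD replicate 2 did it pass), nor with only the 6 libraries of both groups (0.0781). IL36B and SERPIND1 were called in all 6. Control and KD values did not overlap at these genes.

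Near partly kept and kept sites the falls included feedback and cytokine genes. NFKBIZ, an atypical IκB protein that coactivates p52 and p50, fell from 28.3, 33.0 and 45.5 to 13.0, 11.6 and 15.1 CPM (-1.42, adjusted p = 0.0054), while its site 44904 bp away stood at 9.29 and 18.1 in control and 9.48 and 21.4 in guide 1. CXCL2 fell from 25.4, 32.3 and 41.2 to 11.3, 12.015 and 14.2 CPM (-1.40, adjusted p = 0.0109), with its promoter site kept. MEF2C, a myocyte enhancer factor, fell by 1.89 on the log2 scale, SESN2, a stress-induced sestrin, by 1.37 and IRF5, an interferon regulatory factor, by 1.24. CXCL2 and IRF5 each lost the call in 3 of 6 fits, without KD replicate 1, KD replicate 2 or control replicate 3 (edgeR adjusted p up to 0.0669 and 0.0802). Rises included PI3, the elastase inhibitor elafin, from 4.95, 4.08 and 5.14 to 24.8, 25.7 and 27.1 CPM (2.45), and the kinin receptor BDKRB1 (0.99). TWEAK had raised PI3 too, from 0.764, 0.738 and 0.781 CPM in untreated cells.

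In the gene lists, the KD calls were mostly falls, and 1.13% of all genes tested fell. NFKBIZ was the 1 of 13 NF-κB genes to pass (7.69%), and 3 of 14 chemokine and cytokine genes fell (21.4%): CXCL2, IL6 (6.17, 4.88 and 6.83 to 1.55, 0.9502 and 1.43 CPM) and IL1A (3.37, 3.41 and 3.50 to 1.67, 1.23 and 1.26 CPM). The median log2 fold change was -0.24 over the NF-κB list and -0.37 over the chemokines and cytokines, against 0.0051 over all genes tested. TWEAK had raised 7 of the 13 NF-κB genes, 6 of 9 genes of its receptor pathway and 8 of the 14 chemokine and cytokine genes, against 1.55% of all genes tested. NFKB2 stood at 235, 289 and 346 CPM in control and 209, 234 and 273 in KD cells (-0.28, SE 0.17, adjusted p = 0.61), and RELB differed by -0.42 (adjusted p = 0.247). Of 7 stress genes of the endoplasmic reticulum 3 fell (42.9%): DDIT3 by 1.82, the chaperone HSPA5 by 1.23 and ATF4 by 0.58. ERN1 stood at 12.8, 17.0 and 25.0 CPM in control and 13.5, 11.5 and 15.7 in KD cells (-0.43, adjusted p = 0.546). ATF3 fell by 2.30, MMP1 by 1.23, and TIMP1, an inhibitor of metalloproteinases, rose by 0.76. On leaving out 1 library, TIMP1 lost its call in 4 of 6 fits (all but those without control replicate 3 or KD replicate 2), ATF4 in 3 (without control replicate 2, KD replicate 2 or KD replicate 3) and IL1A in 1 (without KD replicate 3). MMP14, whose p52 site was lost, differed by -0.30 (adjusted p = 0.625), and HMGB2, whose promoter was lower in p52, by 0.21 (adjusted p = 0.636).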

How the data were processed

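For ChIP-seq the authors used Trimmomatic for trimming, Bowtie2 for mapping (hg38), MACS2 for peaks with the input subtracted, and bedtools to drop blacklisted regions; for RNA-seq they used Trimmomatic, STAR and featureCounts; tool versions are not given in the sources used here. Peaks were called per library. The deposited peak lists hold a fold enrichment (a ratio to background), a −log10 q-value and a score, of which fold enrichment and −log10 q were used. The lists hold no reads, so the depth of the ChIP-seq libraries is unknown, and intervals cover counting error only. The RNA-seq table holds the authors' raw read counts for 12 libraries of 28384201 to 40192606 counts, and 0 columns of values were left unmapped.

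A promoter was the window of 1000 bp before and 100 bp after a start of GENCODE release 44. Sites were named by the nearest protein-coding start. Named sites were the 10 of best mean rank per class, sites within 50 kb of genes of 9 lists, the 5 largest called differences in each direction, and list genes and changed genes in RNA. The members and lists were chosen with earlier results of these data known. Motifs were sought 100 bp to either side of the summit.

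RNA counts were tested with edgeR 4.0.16 (quasi-likelihood, TMM, filterByExpr, 12 libraries in 1 model) and kept sites with limma 3.58.1 (R 4.3.3). Sites were merged in Python 3.11.15 with pysam 0.24.0. On simulated data with 200 changed features, edgeR recovered 93.5% (4.59% of calls false) over 16879 genes and limma 90.0% (3.23% false) over 1170 sites. The planted changes were larger than every called difference at kept sites and than several named changes in RNA. The rates thus do not carry over to changes of those sizes. Samples of 1 RNA group differed by more than counting noise (chi-square per degree of freedom 6.25 to 78.7). Alternatives were a −log10 q of at least 5, lists of equal length, an overlap of 50%, a peak in either replicate, assembled chromosomes only, other centring, other normalization, no filter, DESeq2 1.42.0, a replicate block and leaving out each replicate. Same-numbered RNA libraries did not deviate together (correlations -0.19, -0.30 and 0.35). After the data were seen, tertiles by rank, each guide 1 library alone, the guide 2 lists, and leaving out sites over 200 kb from a coding start or under a fold enrichment of 3 were added.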

Additional observations from a re-analysis of the deposited data

Results flagged for a closer look

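2 kept sites moved in opposite directions with the guides, on log2 fold enrichment centred over the sites with a peak in all 6 lists. At TBC1D10A guide 1 lay -1.46 from control and guide 2 0.23, and at BEGAIN guide 1 lay -1.35 and guide 2 0.41. In both, each guide 1 library lay below and each guide 2 library above both control libraries. The difference was not tested, and both guides share the same control libraries. Of the 1148 sites with a peak in all 6 lists, 134 went opposite ways in every library, 70 of them lower with guide 1.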

How the results depend on the processing

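The number of lost sites (591) became 103 with the strongest peaks in equal numbers and 8660 with a peak in either replicate. Leaving out 1 library gave 599 to 8126, with 8126 without control replicate 1, 1140 without control replicate 2 and 1763 without guide 1 replicate 2. Kept sites (1170) became 3669 with a peak in either replicate and 2160 with the guide 2 lists, and 1178 to 2342 on leaving out 1 library, the highest without guide 1 replicate 1. Gained sites (20) became 81 in equal numbers, 229 with either replicate, 58 with the guide 2 lists and 2 without sites over 200 kb from a coding start, and 65 to 182 on leaving out 1 library. The share lost at equal length (9.46%) was 15.2% when peaks were ranked by fold enrichment and 11.8 to 19.8% with 1 library left out. Other settings on the sites (a −log10 q of at least 5, 50% overlap, assembled chromosomes, low sites left out) moved these counts by less than 1.5 times. A promoter window of 2000 bp before to 500 bp after the start held 27.1% of lost and 28.3% of kept sites.

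Kept sites called by limma (137) became 0 without centring, 227 with cyclic loess and 292 with a replicate block, and 0 to 25 on leaving out 1 library (25 without control replicate 2). The same-numbered ChIP libraries correlated at 0.311 in their deviations, over only 2 pairs, and the labels do not say what a number marks. Among alternative values for named kept sites, 78 missed the threshold and 41 did not. RNA calls (234) became 469 without a filter on low counts, 534 with DESeq2, 252 with a replicate block and 102 to 148 with 1 library left out (102 without ETS1 KD replicate 3). Among alternative values for named genes in RNA, 80 lost a call and 382 stayed on the same side of the threshold; COL4A2 was among those lost with a replicate block (adjusted p = 0.0511). No named gene or site changed direction under these alternatives. The cause of these moves was not tested, except that fewer peaks, sites or samples enter by construction.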
